A study of Mus musculus with 15 samples.

Results

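The effect of cholesterol that WT and Trem2-/- cells had in common was examined in all 15 libraries of an RNA-sequencing experiment on BV2, a mouse microglial cell line. For each gene the mean effect was the average of the response of WT cells and the response of Trem2-/- cells, each genotype having equal weight, and it was tested in 1 model for 14237 of the 54390 genes in the tables. Such an average can pass a test through 1 genotype alone, so agreement of direction was tested separately. WT non-foamy cells (n = 4) and Trem2-/- non-foamy cells (n = 3) were cultured in media alone. WT foamy cells (n = 4) and Trem2-/- foamy cells (n = 4) received 20 μg ml-1 soluble cholesterol overnight. According to the methods, this cholesterol was prepared with methyl-beta-cyclodextrin, and no carrier is described for the media alone. Responses to cholesterol and to its carrier therefore cannot be told apart, and "cholesterol" below stands for both. According to the methods, the parent line carried Cas9 and was grown from 1 clone, and the Trem2-/- cells were isolated by limiting dilution as single clones, so that genotype and clone cannot be told apart. The methods say in general that experiments were repeated independently, but the sources used here do not say whether the libraries of a group were separate cultures, so the p-values measure the spread between these libraries, which may be technical. Libraries held 23538963 to 41683825 counted reads, and pairs of libraries within a group were further apart than counting error alone (chi-square per gene of 5.95 to 45.4 over 21 pairs).

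Cells keep free cholesterol within limits through 2 opposed programs. When sterol in the endoplasmic reticulum is low, SREBP2 is released to the nucleus and switches on the enzymes of cholesterol synthesis and the LDL receptor. When sterol is plentiful SREBP2 is held back, and oxysterols activate the liver X receptors (LXR), which raise the exporters *Abca1* and *Abcg1* and the carrier *Apoe*. In macrophages that fill with lipid, excess cholesterol is esterified and stored in lipid droplets coated by perilipin 2, and stored esters are hydrolysed again in the lysosome and the cytosol. The deleted gene, *Trem2*, encodes a lipid-sensing receptor of macrophages and microglia, and the comparison asks which genes responded to cholesterol both with and without it.

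The libraries had a macrophage identity in every group. The summed level of 14 macrophage and microglia markers was 4220 to 6800 CPM, that is counts scaled to library size. *Cd68* lay between 1140 and 1710 CPM and *Tyrobp*, the adaptor that TREM2 signals through, between 1100 and 1810 CPM. Markers of microglia in tissue were nearly absent, with *Sall1* at 0 counts in all 15 libraries and *P2ry12*, *Cx3cr1* and *Tmem119* never above 2.46 CPM. Markers of 8 other cell types summed to 1.26 to 3 CPM, and 11 of those 21 genes had no count in any library. *Trem2* itself had 329, 345, 415 and 327 CPM in WT non-foamy and 337, 372, 400 and 383 CPM in WT foamy libraries. It had 232, 214 and 220 CPM in Trem2-/- non-foamy and 227, 227, 218 and 226 CPM in Trem2-/- foamy libraries. The transcript was therefore lower in every Trem2-/- library than in every WT library, though still abundant, and its mean effect of cholesterol was 0.04 on the log2 scale (s.e. 0.052, adjusted p = 1, edgeR), and 0.02 to 0.09 when 1 library was left out, lowest without WT foamy replicate 3 and highest without WT non-foamy replicate 3.

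Few genes had a mean effect that passed the test. In edgeR with the filter on low counts, or in DESeq2, none passed the test of a response in the same direction in each genotype, described further on. After adjustment over all tested genes in edgeR, 2 genes (0.014% of 14237) passed for the mean effect and both were higher in foamy cells: *Selenop*, which encodes the secreted selenium carrier selenoprotein P, and *Cpt1a*, which encodes the carnitine acyltransferase that admits long-chain fatty acids to mitochondria. No gene was called lower in edgeR. DESeq2 called 12 genes for the mean effect: both of these, *Plin2*, *Mrc1*, *Reps2*, *Blnk*, *Ccl6* and *Cd300a*, which were higher, and *Serpinb1a*, *Emp1*, *Fdft1* and *Ero1l*, which were lower. At an unadjusted p under 0.05 the mean effect passed in 660 genes (4.64%), of which 435 were higher (3.06%) and 225 lower (1.58%). If no gene responded, 712 would be expected to pass. The count was 536 to 938 when 1 library was left out, highest without WT non-foamy replicate 3, and 1391 without the 3 libraries farthest from their groups (WT non-foamy replicate 3, WT foamy replicate 1 and Trem2-/- foamy replicate 4), a choice made after the data were seen. Of all tested genes 3.36% had such a p together with the same sign in each genotype. The difference between the responses of the genotypes was called in 518 genes (3.64%), or in 201 to 661 when 1 library was left out. The response was called in 399 genes of WT cells (2.8%) and in 20 genes of Trem2-/- cells (0.14%).

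In each called gene 1 genotype gave most of the effect. *Selenop* had 154, 160, 181 and 157 CPM in WT non-foamy libraries and 217, 274, 294 and 278 CPM in WT foamy libraries. In Trem2-/- cells it had 929, 972 and 895 CPM without cholesterol and 998, 908, 861 and 1100 CPM with cholesterol. Thus the WT groups did not overlap, whereas the Trem2-/- groups did, and all Trem2-/- libraries lay above all WT libraries. Its mean effect of 0.38 on the log2 scale (s.e. 0.063, adjusted p = 0.0364, edgeR) averaged a WT response of 0.71 (s.e. 0.086) and a Trem2-/- response of 0.05 (s.e. 0.092, unadjusted p = 0.581 in the fit across all genes), and the difference between these was itself called (adjusted p = 0.00508). In the annotation 15.5% of the exonic bases of *Selenop* lie opposite exons of 1 antisense gene, and reads from the pair cannot be separated because the strand setting of the counting is not given.

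*Cpt1a* was the reverse case. WT libraries had 23.8, 24.6, 24.7 and 25.1 CPM without cholesterol and 24.8, 24.7, 23.9 and 23.2 CPM with it. Trem2-/- libraries had 28.4, 30.1 and 28.3 CPM without cholesterol and 41.7, 50.2, 45.2 and 43.9 CPM with it. The WT groups overlapped and the Trem2-/- groups did not. The mean effect was 0.31 (s.e. 0.051, adjusted p = 0.0364, edgeR), made of a WT response of -0.02 (s.e. 0.07) and a Trem2-/- response of 0.64 (s.e. 0.074), and the difference between them was called (adjusted p = 0.000505). The call of *Selenop* was kept when Trem2-/- foamy replicate 3, WT foamy replicate 1 or WT non-foamy replicate 3 was left out, and lost without each of the other 12 libraries. That of *Cpt1a* was kept without Trem2-/- foamy replicate 1, WT foamy replicate 1 or WT non-foamy replicate 3, and also lost without each of the other 12. The mean effects stayed at 0.35 to 0.42 for *Selenop* and 0.28 to 0.33 for *Cpt1a* when 1 library was left out. A fit with the replicate number as a block called neither (adjusted p = 0.181 for *Selenop* and 0.126 for *Cpt1a*, edgeR).

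**Figure D1:**
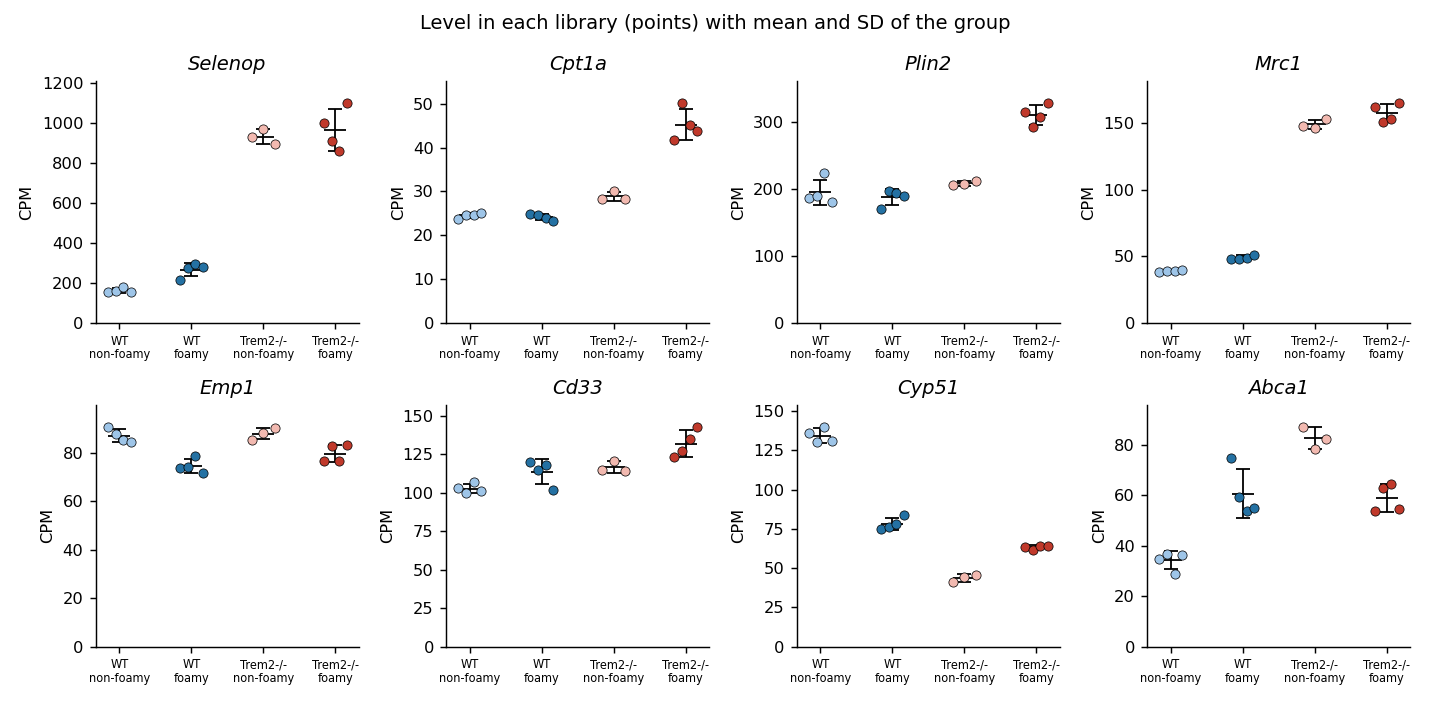
Level in CPM (y axis, from 0) of 8 genes in each library (points), with the mean and SD of each group (n = 4, 4, 3 and 4). *Selenop* and *Mrc1* rose in WT cells, *Cpt1a* and *Plin2* in Trem2-/- cells, *Emp1* was lower in all foamy groups, and *Cyp51* and *Abca1* moved in opposite directions in the genotypes.

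The promoters of these genes are shown because they are the 2 genes called for the mean effect in edgeR, each mainly through 1 genotype. RefSeq lists 3 start sites for *Selenop* and 1 for *Cpt1a* (GRCm38.p6). The windows run from 250 bases before to 50 bases after the start, and 5 motifs were searched on both strands in 32851 promoters. The FOXO-type motif GTAAACA was found in 3.65% of them. The motif of the core promoter that binds TBP, TATAAA, was found in 13.6%. The half-site of nuclear receptors, AGGTCA, was found in 16.3%. A pair of such half-sites with 1 base between them (PPAR type) was found in 0.0396% and with 4 bases between them (LXR type) in 0.0152%, and each pair also contains the single half-site. The window of *Selenop* that is printed, on the plus strand at chr15:3270727-3271026, holds the FOXO-type motif starting 24 bases before the start site and the TBP motif starting 10 bases before it. The start site of the printed window lies 210 bases from the principal start in the annotation. The other windows of *Selenop*, including the one at the principal start, hold none of the 5 motifs. The window of *Cpt1a*, on the plus strand at chr19:3323051-3323350, holds 1 half-site on the minus strand, 94 bases before the start site. No motif was found in both genes. Capitals mark the matches.
Selenop: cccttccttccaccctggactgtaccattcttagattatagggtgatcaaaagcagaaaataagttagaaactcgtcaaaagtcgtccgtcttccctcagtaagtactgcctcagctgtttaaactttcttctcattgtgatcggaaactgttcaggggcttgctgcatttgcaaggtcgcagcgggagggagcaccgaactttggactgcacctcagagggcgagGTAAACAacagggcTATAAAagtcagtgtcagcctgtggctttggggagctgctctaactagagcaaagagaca
Cpt1a: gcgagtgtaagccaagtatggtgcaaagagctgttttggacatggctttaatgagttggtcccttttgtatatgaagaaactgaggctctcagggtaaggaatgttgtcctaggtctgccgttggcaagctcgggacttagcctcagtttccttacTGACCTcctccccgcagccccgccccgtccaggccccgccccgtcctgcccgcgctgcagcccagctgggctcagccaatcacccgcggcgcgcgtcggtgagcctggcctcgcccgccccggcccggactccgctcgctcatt

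Genes with the same direction in each genotype were rarer than genes with opposite directions. With an unadjusted p under 0.05 in each genotype, 10 genes (0.0702%) moved the same way, 7 higher (0.0492%) and 3 lower (0.0211%), and 371 (2.61%) moved opposite ways. The count of 10 is not above what chance would pass if no gene responded. It therefore does not show a shared response. When 1 library was left out, 6 to 17 genes moved the same way and 250 to 413 opposite ways. In edgeR with the filter on low counts, no gene passed a test that takes the larger of the 2 genotype p-values and adjusts it over all genes. The libraries gave the same picture without a model: foamy and non-foamy libraries were separate in each genotype and in the same order in 10 genes (0.0702%; 0.0421% higher and 0.0281% lower), and separate in opposite order in 287 genes (2.02%). The 10 genes separate in the same order are likewise not more than chance would give. Among the 10 were *Tlr8*, *Emp1*, *Pip5k1b* and *Ccnb2*, which are described further on. *Golga1*, a coiled-coil protein of the Golgi, had 25.7 to 26 CPM in WT non-foamy and 27.3 to 28.0 CPM in WT foamy libraries, and 28.7 to 28.8 CPM in Trem2-/- non-foamy and 28.8 to 35.1 CPM in Trem2-/- foamy libraries (separate before rounding), a mean effect of 0.11 (s.e. 0.051, adjusted p = 1, edgeR). The lipase *Abhd12* (0.08) and the focal adhesion protein *Tns2* (0.42) were also higher in all foamy libraries of their genotype. Over all tested genes the responses had the same sign in 5274 (37%). This share fell with expression level, from 48.9% of 2529 genes under 1 CPM to 42.4% of 3343 genes at 1 to 10 CPM, 33.1% of 6686 genes at 10 to 100 CPM and 24.2% of 1679 genes at 100 CPM or more. The direction of each Trem2-/- response rests on the foamy and non-foamy labels of those libraries, and no value used here settles these labels. The droplet coat gene *Plin2* was higher in all 4 Trem2-/- foamy libraries (292 to 328 CPM) than in the 3 non-foamy ones (205 to 212 CPM), but its WT groups overlapped (response -0.05, s.e. 0.067). Were the labels exchanged, the counts of 10 and 371 would change places, 75.8% of the genes at 100 CPM or more would have the same sign, and the mean effect would be called in the 518 genes called here for the difference. All results are given as labelled.

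**Figure D2:**
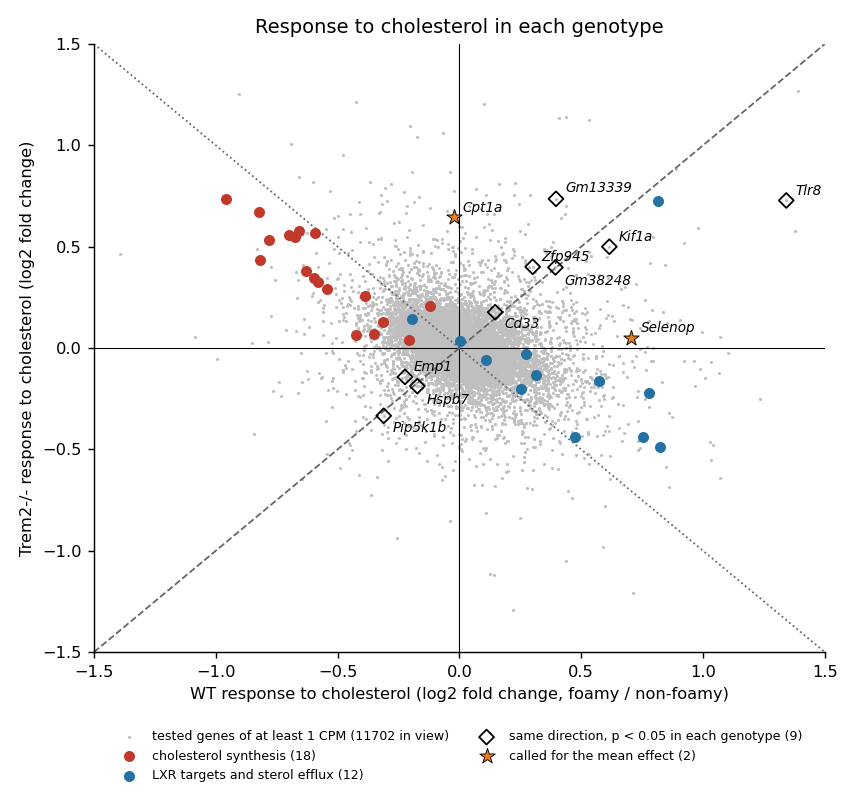
Log2 fold change of foamy over non-foamy cells in WT (x axis) and Trem2-/- cells (y axis) for 11702 of the 11708 tested genes of at least 1 CPM, the others lying outside the axes. The dashed line marks equal and the dotted line opposite responses. All 18 tested genes of cholesterol synthesis lie in the upper left quadrant, and 9 of the 10 genes with the same direction and p under 0.05 in each genotype, those of at least 1 CPM, are shown as open diamonds.

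The median absolute mean effect was 0.06 on the log2 scale and its median standard error was 0.078. The difference between the responses divided by 2, which has the same standard error, had a median absolute size of 0.09. Among the 11708 genes of at least 1 CPM, the 95% interval of the mean effect lay within ±0.5 in 91.7% and within ±0.25 in 67.9%, so that in those genes a mean effect beyond these sizes lay outside the interval. For genes that responded in WT cells the mean was much smaller than the response itself. The 399 genes had a median absolute WT response of 0.33 and a median absolute mean effect of 0.10. The 20 genes of Trem2-/- cells had 0.56 and 0.12. These genes were chosen by 1 of the responses that enter the mean, so the values are a description.

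**Figure D3:**
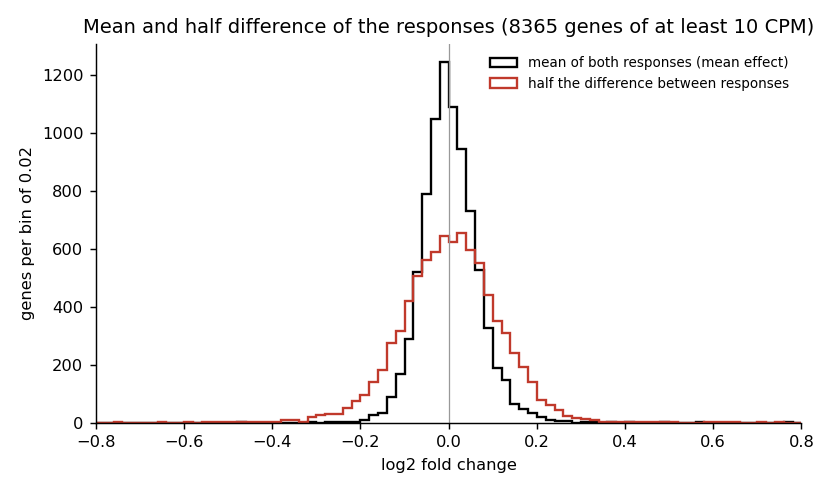
Number of genes (y axis) by log2 fold change (x axis, bins of 0.02) for 8365 genes of at least 10 CPM. The mean of the genotypes' responses (black, SD 0.072) is more tightly gathered around 0 than the difference between the responses divided by 2 (red, SD 0.115).

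The 10 genes with the same direction and an unadjusted p under 0.05 in each genotype were named after their values were seen, and none passed the adjusted threshold in edgeR. Their number was not above chance, so none of them is shown to respond in both genotypes. *Emp1*, an epithelial membrane protein of the PMP22 family, was the most abundant of those that were lower. It had 90.8, 87.8, 85.5 and 84.5 CPM in WT non-foamy and 73.8, 74.2, 78.8 and 71.8 CPM in WT foamy libraries, and 85.5, 88.3 and 90.1 CPM in Trem2-/- non-foamy and 76.6, 82.7, 76.5 and 83.1 CPM in Trem2-/- foamy libraries. Every foamy library lay below every non-foamy library, across genotypes as well as within them. Its WT response was -0.22 (s.e. 0.055) and its Trem2-/- response -0.14 (s.e. 0.06), with a mean of -0.18 (s.e. 0.041, adjusted p = 0.32, edgeR). In DESeq2 the mean effect of *Emp1* passed (-0.19, adjusted p = 0.0025), and *Emp1* was the only one of 12 genes called there with an unadjusted p under 0.05 and the same sign in each genotype. The other lower genes were *Hspb7*, a small heat shock protein (-0.18), and *Pip5k1b*, a kinase that makes phosphatidylinositol 4,5-bisphosphate (-0.32).

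Of the 7 that were higher, *Cd33*, a sialic acid-binding inhibitory receptor of myeloid cells, was the most abundant. It had 103, 100, 107 and 101 CPM in WT non-foamy and 120, 115, 118 and 102 CPM in WT foamy libraries, so that WT foamy replicate 4 lay within the non-foamy range. In Trem2-/- cells it had 115, 121 and 114 CPM without and 123, 127, 135 and 143 CPM with cholesterol, without overlap. The mean effect was 0.16 (s.e. 0.046, adjusted p = 0.797, edgeR). *Tlr8*, an endosomal receptor for single-stranded RNA, had 6, 2, 0 and 5 reads in WT non-foamy and 8, 8, 10 and 10 reads in WT foamy libraries, and 64, 64 and 56 reads in Trem2-/- non-foamy and 104, 100, 111 and 98 reads in Trem2-/- foamy libraries. The groups did not overlap in either genotype, but the WT level rests on 10 reads or fewer per library. Its mean effect was 1.03 (s.e. 0.28, adjusted p = 0.571, edgeR). *Kif1a*, a motor that carries vesicles along microtubules, had a mean effect of 0.56 and the zinc-finger gene *Zfp945* one of 0.35. The predicted genes *Gm7860*, *Gm13339* and *Gm38248* had mean effects of 1.08, 0.57 and 0.40.

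Of the 12 genes called in DESeq2, 10 were short of the adjusted threshold in edgeR, and *Serpinb1a*, *Plin2* and *Mrc1* had the lowest adjusted p among them in edgeR. *Serpinb1a*, an inhibitor of neutrophil proteases, had an adjusted p of 0.0725 (edgeR, mean effect -0.28) and of 0.00024 in DESeq2, with a WT response of -0.47 and a Trem2-/- response of -0.08. *Plin2*, the lipid droplet coat protein, had an adjusted p of 0.0886 (edgeR, mean effect 0.26) and of 0.000445 in DESeq2. It had 186, 189, 223 and 181 CPM in WT non-foamy and 170, 197, 194 and 189 CPM in WT foamy libraries. In Trem2-/- cells it had 205, 207 and 212 CPM without and 314, 292, 307 and 328 CPM with cholesterol, so that its mean effect was that of Trem2-/- cells. It passed when WT foamy replicate 1 or WT non-foamy replicate 3 was left out, whereas *Blnk*, a B-cell linker also found in macrophages, passed without the former only. *Mrc1*, the mannose receptor, had an adjusted p of 0.10 (edgeR, mean effect 0.21) and of 0.000214 in DESeq2, with the same sign in each genotype. It had 37.9, 38.8, 39.2 and 39.9 CPM in WT non-foamy and 47.8, 47.7, 49.0 and 51.3 CPM in WT foamy libraries. In Trem2-/- cells it had 148, 146 and 153 CPM without and 162, 151, 153 and 165 CPM with cholesterol, which overlapped. The WT response of *Mrc1* was 0.33 (s.e. 0.055) and the Trem2-/- response 0.08 (s.e. 0.057). These 3 genes, like the 2 called genes, thus owed most of their mean effect to 1 genotype. The mean effects of *Blnk* (0.47 in WT, -0.04 in Trem2-/- cells) and of *Reps2*, which takes part in endocytosis (0.58 and -0.04), were also those of WT cells, and the signs of the responses differed. *Cd300a*, an inhibitory receptor of myeloid cells, had 0.27 and 0.07. The adjusted p of these 3 was 0.254, 0.32 and 0.571 in edgeR and 0.01, 0.0136 and 0.0477 in DESeq2.

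The enzymes of cholesterol synthesis had opposite estimates in the genotypes. Of 19 listed enzymes 18 were tested. All 18 had a lower estimate in WT foamy cells, where 14 passed the adjusted threshold. All had a higher estimate in Trem2-/- foamy cells, where 6 passed. Of all 14237 tested genes, 162 were called lower in WT and 15 higher in Trem2-/- foamy cells. None of the 18 had the same sign in each genotype, against 37% of all tested genes. The difference was called in 14 of the 18 and in 518 (3.64%) of all tested genes. The mean effect was negative in 17 of 18, with a median of -0.10 against 0.00 over all tested genes, and was called for none of them in edgeR and for *Fdft1* in DESeq2. *Cyp51*, the lanosterol demethylase, illustrates the pattern. It had 136, 130, 140 and 131 CPM in WT non-foamy and 74.6, 76.1, 78.1 and 83.5 CPM in WT foamy libraries. It had 41.0, 44.4 and 45.9 CPM in Trem2-/- non-foamy and 63.3, 61.5, 63.9 and 64.3 CPM in Trem2-/- foamy libraries. The groups were separate in each genotype and ran in opposite directions (WT -0.78, Trem2-/- 0.53), which left a mean effect of -0.12 (s.e. 0.042, adjusted p = 0.912, edgeR). *Fdft1*, squalene synthase, had the lowest p of the list for the mean effect (-0.19, s.e. 0.044, adjusted p = 0.322 in edgeR and 0.0115 in DESeq2), with responses of -0.82 in WT and 0.43 in Trem2-/- cells. In the annotation 18.3% of its exonic bases overlap an antisense gene. Epoxidase *Sqle* and HMG-CoA synthase *Hmgcs1* had mean effects of -0.13 each. Of 7 tested further SREBP2 targets, 6 had a lower mean estimate (median -0.08), among them the sterol-regulated anchor *Insig1* (-0.13) and the sterol carrier *Stard4* (-0.12, counted with this list).

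Genes of the LXR program mirrored the enzymes. Of 12 tested, 11 had a higher mean estimate (median 0.11), and the sign was the same in 2, against 37% of all tested genes. In WT cells 5 were called higher and in Trem2-/- cells 2 were called lower. Of all 14237 tested genes, 237 were called higher in WT and 5 lower in Trem2-/- foamy cells. *Abca1*, which exports cholesterol to apolipoprotein A-I, had 34.8, 36.8, 28.9 and 36.5 CPM in WT non-foamy and 74.6, 59.4, 53.8 and 55.0 CPM in WT foamy libraries. It had 87.2, 78.4 and 82.4 CPM in Trem2-/- non-foamy and 53.7, 62.9, 64.3 and 54.6 CPM in Trem2-/- foamy libraries. The foamy libraries of the genotypes overlapped, while the non-foamy libraries were far apart. Its mean effect was 0.17 (s.e. 0.069, adjusted p = 1, edgeR), or 0.11 without WT foamy replicate 1, and that of *Abcg1*, which exports sterol to HDL, was 0.16. *Mertk*, a receptor for the uptake of dying cells, had 0.20 and *Apoe* 0.09. The receptor *Nr1h3* (LXRα) had 0.12, with a WT response of 0.27 and a Trem2-/- response of -0.03.

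The foamy groups of the genotypes were also closer to each other over the 5000 most expressed genes. The root mean square log2 difference between group means was 0.42 between the non-foamy groups and 0.279 between the foamy groups. It was 0.143 between WT non-foamy and WT foamy cells and 0.0995 between the Trem2-/- groups. These distances compare group means, the foamy and non-foamy values are from different libraries, and no test was made of them.

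No gene of cholesterol ester storage and turnover was called for the mean effect in edgeR, and *Plin2* was in DESeq2. Of 14 tested lipid droplet and cholesterol ester genes 10 had a higher mean estimate (median 0.05) and 6 had the same sign in each genotype, where 51.7% and 37% of all tested genes did, so that the same-sign share was near the background. *Soat1*, which esterifies cholesterol, had a WT response of 0.21 and a Trem2-/- response of -0.09, and these differed (adjusted p = 0.0446, edgeR). The droplet protein *Hilpda* (-0.19 and 0.30) differed in the other direction (adjusted p = 0.0247, edgeR), and the coat protein *Plin3* had 0.18 and -0.10. Lysosomal acid lipase *Lipa*, which hydrolyses cholesterol esters taken up in lipoproteins, had WT and Trem2-/- responses of 0.21 and 0.09 (mean 0.15, s.e. 0.043, adjusted p = 0.797, edgeR). The neutral ester hydrolase *Nceh1* had 0.23 and 0.05 (mean 0.14). The triglyceride lipase *Pnpla2* had 0.23 and 0.12 (mean 0.17). *Scarb2*, a lysosomal membrane protein that can carry cholesterol, had 0.08 and 0.17 (mean 0.13). In contrast *Cyp27a1*, the mitochondrial sterol 27-hydroxylase, had responses of 0.35 and -0.01 that differed between genotypes (adjusted p = 0.0446, edgeR). Of 13 tested genes of intracellular sterol transport, which include *Lipa*, *Scarb2* and *Cyp27a1*, 10 had a higher mean estimate (median 0.06) and 8 the same sign. The lysosome list had 31 of 33 tested genes with a higher mean estimate (median 0.06), but only 6 with the same sign, since 31 were higher in WT and 6 in Trem2-/- foamy cells. For this list, therefore, the mean estimate followed the larger WT response.

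Fatty acid oxidation was represented by *Cpt1a*. Of 19 tested PPAR targets and oxidation genes, 15 had a higher mean estimate (median 0.05), 1 was called and 6 had the same sign. Over all tested genes, 51.7% had a higher and 48.3% a lower mean estimate, and 37% had the same sign. The same-sign share of this list was therefore not above the background. *Cd36*, which takes up fatty acids and oxidized lipoproteins, had WT and Trem2-/- responses of -0.33 and 0.67 and a mean effect of 0.17 (adjusted p = 1, edgeR). Of 15 tested genes of fatty acid synthesis and desaturation 10 had a lower mean estimate (median -0.04). *Selenop* was the only called gene among 16 tested selenoproteins, of which 9 had a higher mean estimate (median 0.01) and 2 the same sign in each genotype.

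Genes of cell division had a one-sided mean estimate. Of 54 tested genes of G2 and M phase, 53 had a lower mean estimate (median -0.08), 16 of them at an unadjusted p under 0.05 (lower in 1.58% of all genes), and none passed the adjusted threshold in edgeR or DESeq2. In WT cells 20 were called lower (median response -0.22), where 162 of all 14237 tested genes were. In Trem2-/- cells, by contrast, 40 of 54 had a higher estimate (median 0.06). *Ccnb2*, a mitotic cyclin, and *Dlgap5*, a spindle protein, belonged to the 13 of 54 with the same sign, against 37% of all tested genes. *Ccnb2* had responses of -0.15 and -0.11 and *Dlgap5* of -0.15 and -0.10, and their mean effects were -0.13 each (adjusted p = 0.921 and 0.89, edgeR). The mitotic kinase *Aurka* (-0.33 and 0.08) and its activator *Tpx2* (-0.29 and 0.03) differed between genotypes (adjusted p = 0.00971 and 0.0374, edgeR). For *Top2a*, the DNA topoisomerase of dividing cells, the responses were -0.21 and -0.01. Of 43 tested S phase genes 28 had a lower mean estimate (median -0.01), where 48.3% of all tested genes did. As RNA was taken from whole cultures, fewer dividing cells and less of these RNAs per cell cannot be told apart.

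No gene of the stress, hypoxia and immune lists was called for the mean effect in edgeR. DESeq2 called *Ccl6* of the chemokines, *Mrc1* of alternative activation and *Ero1l* of the glycolysis and hypoxia list. The list counts that follow stand beside 51.7% of all tested genes with a higher mean estimate, 48.3% with a lower one and 37% with the same sign. In the integrated stress response 8 of 14 tested genes had a lower mean estimate (median -0.10), among them asparagine synthetase *Asns* (-0.34 in WT, 0.05 in Trem2-/- cells, adjusted p of the difference = 0.0221, edgeR). *Ero1l*, an oxidase of the endoplasmic reticulum that is induced in hypoxia, had responses of -0.31 and -0.03 (mean -0.17, adjusted p = 0.571 in edgeR and 0.0136 in DESeq2). Of 20 tested NRF2 targets 14 had a higher mean estimate (median 0.02), and the cystine transporter *Slc7a11* had nearly equal responses of 0.20 and 0.19 (s.e. 0.093 and 0.099, mean 0.20, adjusted p = 0.938, edgeR). Of 21 tested genes of the unfolded protein response 16 had a lower mean estimate (median -0.02) and 8 the same sign, a same-sign share near the background. Among 15 tested Toll-like receptors and co-receptors 11 had a higher mean estimate (median 0.06) and 8 the same sign, among them *Tlr8*, *Tlr7* (mean 0.09) and *Tlr13* (0.11). Of 7 tested Fc receptors 6 were higher by estimate and 4 had the same sign, and of 7 tested genes of alternative activation 6 were higher by estimate and 4 had the same sign. The chemokine *Ccl6* had a mean effect of 0.26, of which the Trem2-/- response was 0.47 and the WT response 0.05. Among 13 tested macrophage and microglia markers 11 had a higher mean estimate (median 0.07) and 8 the same sign, and *Adgre1* (F4/80) had responses of 0.14 and 0.09 (mean 0.12, s.e. 0.042, adjusted p = 0.994, edgeR).

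Transcripts encoded by mitochondria had no called mean effect in edgeR or DESeq2. Of 13 tested, 13 were higher in Trem2-/- foamy cells and 8 in WT foamy cells by estimate. The 7 most abundant transcripts, from *mt-Nd6* (1109 CPM over the 15 libraries) to *mt-Co1* (42340 CPM), had mean effects between -0.03 and 0.05 with standard errors of 0.085 to 0.092. The other 6 had standard errors of 0.18 to 1.29. Of these *mt-Co2*, a subunit of cytochrome oxidase, ranged from 93.7 to 236 CPM in WT non-foamy, 159 to 258 in WT foamy, 100 to 223 in Trem2-/- non-foamy and 194 to 376 CPM in Trem2-/- foamy libraries, with overlap in each genotype (mean effect 0.57, s.e. 0.18, adjusted p = 0.857, edgeR). *mt-Atp6*, an ATP synthase subunit, ranged from 15.5 to 324 CPM within WT foamy libraries alone, and its standard error of 0.48 was large beside its mean effect of 1.33, which was 0.88 without WT foamy replicate 3.

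**Figure D4:**
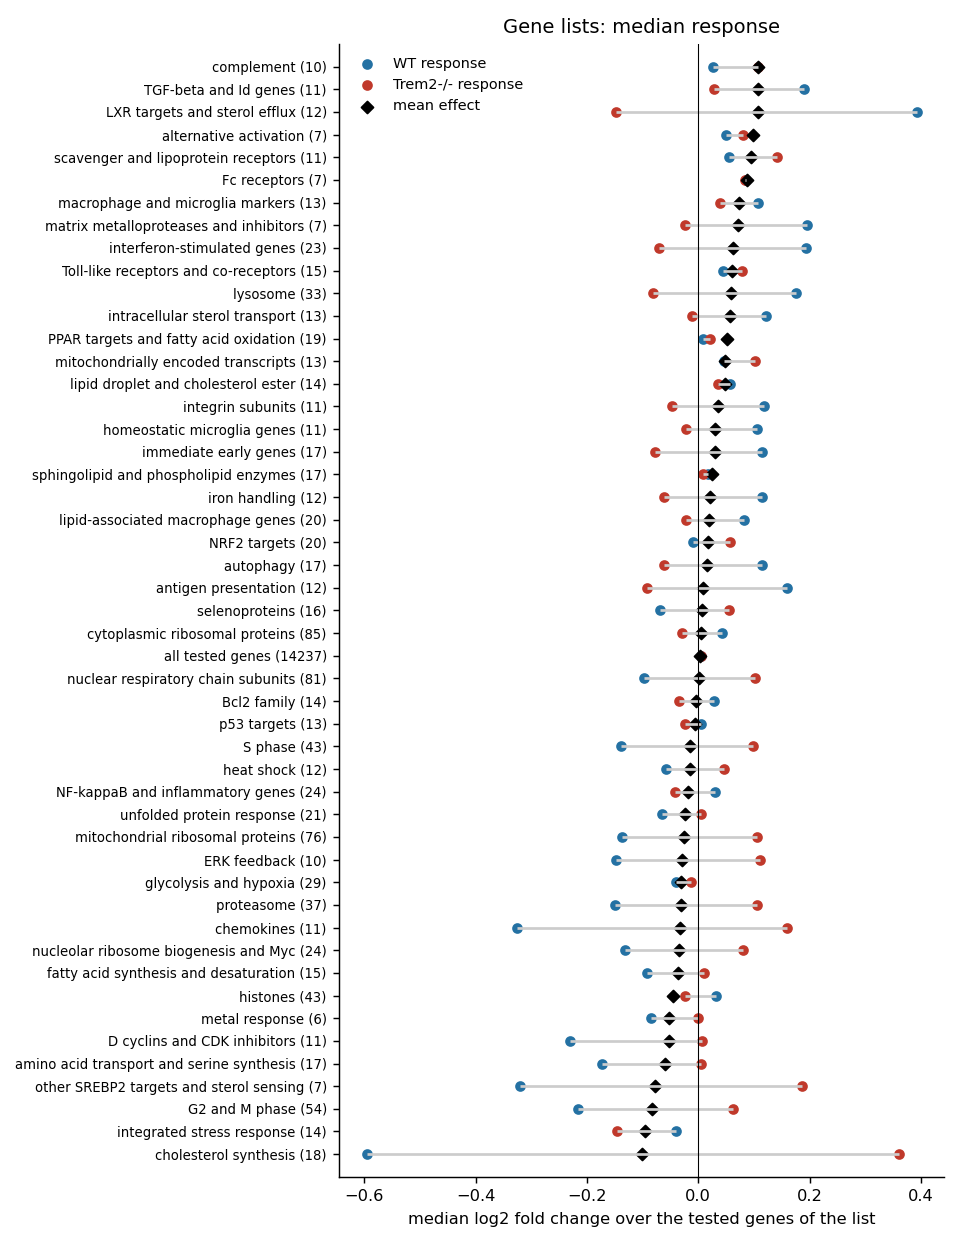
Median log2 fold change (x axis) over the tested genes of 48 gene lists and over all tested genes (y axis, number of genes in brackets) for the WT response (blue), the Trem2-/- response (red) and the mean effect (black diamonds). For cholesterol synthesis the WT and Trem2-/- medians are -0.60 and 0.36 and the mean effect has a median of -0.10, and no list has a median mean effect beyond 0.11 in either direction.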

How the data were processed

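RNA of BV2 cells, WT or Trem2-/-, with or without cholesterol, was sequenced in 15 libraries. The authors deposited raw counts, whole numbers of reads per gene, in 1 table per library. According to the methods, reads were processed with the CHURP pipeline (Trimmomatic, HISAT2, SAMTools, featureCounts) on GRCm38, named mm10 in the submitters' processing notes. The handling of strand and of reads with several matches is not given in the sources used here.

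Genes were kept by filterByExpr (minimum count 10, smallest group 3), which left 14237 genes with 99.9653% of counts. After TMM scaling, edgeR 4.0.16 (glmQLFit and glmQLFTest, R 4.3.3) was run with a mean for each of the 4 groups, and the biological coefficient of variation came to 10.2%. The mean effect, each genotype's response and their difference were contrasts of this fit, and a gene was called at a Benjamini-Hochberg adjusted p under 0.05. Agreement of direction was tested by the larger genotype p where signs matched. CPM are TMM scaled, and s.e. are from the model.

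Genes were named by rule (called genes, members of 49 lists, *Trem2*) or after their values were seen. The latter were *Serpinb1a*, *Ccl6*, *Emp1*, the genes shown from DESeq2, *Golga1*, *Abhd12*, *Tns2* and those for which the text says so. The question, the lists and the members were chosen with earlier results of these data known, and lists were described without a set test. S phase and G2 and M phase lists come with Seurat 5.3.0. Annotation was GENCODE M21. One gene is not reported here. Alternatives were DESeq2 1.42.0, RLE factors, total counts, other filters, an additive model, separate fits per genotype, a replicate block, stricter thresholds and leaving out each library. The fit was also run on simulated data, and the outcome is not given here.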

Additional observations from a re-analysis of the deposited data

Results flagged for a closer look

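In 52 of the genes named in the text, 156 groups of 4 libraries were checked for a library far from the others. Genes named only as list members, such as *Soat1*, *Hilpda*, *Plin3*, *Tlr7* and *Tlr13*, were not among the 52. Of the groups checked 12 had such a library, where chance flags about 1 in 20 groups. The remaining 3 libraries of each group are given as their range. WT non-foamy replicate 3 stood apart in *Sqle* at 118 CPM against 136 to 139 CPM, *Abcg1* at 34.4 CPM against 45 to 45.9 CPM, *Mertk* at 25.2 CPM against 30.4 to 31.4 CPM, *Aurka* at 100 CPM against 108 to 109 CPM and *Cd300a* at 159 CPM against 141 to 144 CPM. Trem2-/- foamy replicate 3 stood apart in *Trem2* at 218 CPM against 226 to 227 CPM. Trem2-/- foamy replicate 2 stood apart in *Kif1a* at 5.15 CPM against 3.64 to 3.79 CPM. Trem2-/- foamy replicate 1 stood apart in *Fdft1* at 57.4 CPM against 51.2 to 52 CPM. WT foamy replicate 2 stood apart in *Lipa* at 268 CPM against 246 to 248 CPM. Trem2-/- foamy replicate 4 stood apart in *Slc40a1* at 59 CPM against 51.7 to 51.9 CPM. WT non-foamy replicate 4 stood apart in *mt-Atp6* at 114 CPM against 23.6 to 37.4 CPM. WT foamy replicate 1 stood apart in *Blnk* at 41.2 CPM against 47.2 to 47.6 CPM.

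In 22 of these 52 genes the responses of the genotypes differed (adjusted p under 0.05 for the interaction term, edgeR). *Soat1* and *Hilpda*, which are outside the 52, also differed and are described above. The difference is the Trem2-/- response minus the WT response on the log2 scale. It was positive in *Cpt1a* (0.67), *Plin2* (0.63), *Serpinb1a* (0.39), *Fdft1* (1.25), *Cyp51* (1.31), *Sqle* (0.83), *Hmgcs1* (0.91), *Insig1* (0.71), *Stard4* (0.77), *Cd36* (0.99), *Asns* (0.39), *Tpx2* (0.32), *Aurka* (0.41). It was negative in *Selenop* (-0.65), *Abca1* (-1.31), *Abcg1* (-1.19), *Mertk* (-0.73), *Apoe* (-0.45), *Cyp27a1* (-0.36), *Slc40a1* (-0.68), *Reps2* (-0.62), *Blnk* (-0.51). *Selenop* and *Cpt1a*, the genes called for the mean effect, are among them, as are *Plin2* and *Serpinb1a*, which had the next lowest adjusted p.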

How the results depend on the processing

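The number of genes called for the mean effect, 2 in edgeR, was 2 with RLE factors or at least 10 counts in every library, 3 with total counts alone (*Selenop*, *Plin2* and *Serpinb1a*, with *Cpt1a* at an adjusted p of 0.112), 12 in DESeq2, 36 with no filter on low counts, and 0 in the additive model, with a minimum absolute log2 fold change of 0.5 or at an adjusted p under 0.01. Called genes with the same sign in each genotype numbered 1 in edgeR, 2 with total counts alone, 7 in DESeq2, 28 with no filter, and 0 in the additive model and under the stricter thresholds. Those that also had an unadjusted p under 0.05 in each genotype were 0 in edgeR, 1 in DESeq2 and 15 with no filter, and the test by the larger p called 8 with no filter and 0 in edgeR and DESeq2. With no filter, edgeR gave every gene the same dispersion spread (infinite prior degrees of freedom, against 11.2), so that the highly variable *mt-Atp6* had an adjusted p of 1.1e-132 with a standard error of 0.052.

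Leaving out each library in turn gave 0 to 4 called genes, 0 to 2 of them with the same sign, 0 to 0 also with p under 0.05 in each genotype, and 0 to 0 by the larger p. Genes of the same direction with an unadjusted p under 0.05 in each genotype then numbered 6 to 17, genes of opposite direction 250 to 413, and the share of genes with the same sign was 36.6% to 39.4%. The same-direction count was 6 without WT non-foamy replicate 2, 17 without Trem2-/- foamy replicate 4 and 16 without WT non-foamy replicate 3. The difference was called in 201, 227 and 273 genes without Trem2-/- non-foamy replicates 1, 2 and 3, in 276 and 336 without Trem2-/- foamy replicates 1 and 3, in 238 without WT foamy replicate 2 and in 343 without WT non-foamy replicate 1, in 294 with a replicate block and in 940 in DESeq2. The libraries farthest from their groups were WT non-foamy replicate 3, WT foamy replicate 1 and Trem2-/- foamy replicate 4. Leaving these out together, a choice made after the data were seen, gave 42 called genes, 31 with the same sign, 7 also with p under 0.05 in each genotype, and 0 by the larger p. Opposed genes rose as well, with 695 of opposite and 49 of the same direction, and 1514 genes were called for the difference.

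The replicate numbers did not pair the libraries throughout, though some same-numbered libraries deviated together. Deviations from the group means of same-numbered libraries correlated at -0.426 to 0.747 over 14 pairs, of which 5 were above 0.1. Between WT non-foamy and WT foamy libraries the correlations of replicates 1, 2, 3 and 4 were 0.432, 0.354, 0.747 and -0.316. Between Trem2-/- non-foamy and foamy libraries those of replicates 1, 2 and 3 were -0.0092, -0.345 and 0.447. Whether same-numbered libraries shared a batch was not tested. A replicate block left 0 genes called and 0 of them with the same sign, and the adjusted p was 0.181 for *Selenop* and 0.126 for *Cpt1a*.

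None of the 52 genes whose mean effects were recomputed under the alternatives changed direction. The other genes named in the text were not recomputed this way. These are markers, genes named only as list members, such as *Soat1* and *Tlr7*, and genes described only without the 3 libraries. Lists kept the sign of their median under RLE factors and total counts, except nuclear respiratory chain subunits, which had 0.0011 with TMM and -0.0019 with RLE.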

Other observations

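Without the 3 libraries farthest from their groups (a choice made after the data were seen), the 7 genes called for the mean effect with the same sign and an unadjusted p under 0.05 in each genotype were *mt-Ty*, *mt-Co2*, *Gm13339*, *Fxyd2*, *Mgst2* and *Rabac1*, which were higher in foamy cells, and *Emp1*, which was lower. *Mgst2*, a microsomal glutathione transferase, had a mean effect of 0.27 (s.e. 0.051, adjusted p = 0.0124, edgeR), with responses of 0.29 in WT and 0.26 in Trem2-/- cells. *Fxyd2*, a regulator of the sodium pump, had 0.31 (s.e. 0.053, adjusted p = 0.00659), with 0.43 and 0.18. *Rabac1*, a Rab acceptor of the Golgi, had 0.18 (s.e. 0.039, adjusted p = 0.0369), with 0.17 and 0.19. *Emp1* had -0.19 (s.e. 0.039, adjusted p = 0.0202), with -0.23 and -0.16. Of other glutathione transferases called there, *Mgst1* and *Gstm1* responded mainly in WT cells (0.98 and 0.44, against 0.18 and 0.01), and *Gstp1* mainly in Trem2-/- cells (0.33 against 0.07). These genes were named after their values were seen, and none of them but *Emp1* and *Gm13339* was among the 10 of the same direction in all 15 libraries.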
